A study of Rattus norvegicus with 6 samples.

Results

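Rat bone marrow mesenchymal stem cells (BMSCs) are plastic-adherent stromal cells grown out of flushed marrow, and the 4 immune genes described here, C1qa, Tifab, Prkcq and Slfn4, are better known from blood cells than from stroma. The genes were chosen from published lists of changed genes whose values are those of these same arrays. For each of the 4 genes, 1 of the 38804 probes on the array could be named, and whether other probes read the same genes is not known here. BMSCs of Sprague-Dawley rats were kept for 48 h in 20% oxygen (normoxia, 3 samples) or in 0% oxygen (hypoxia, 3 samples), and total RNA of each sample was put on 1 single-colour Agilent array. The sample labels name no allele, transgene or drug. For C1qa, Tifab and Prkcq the study gives the same values under other names. Its mRNA list calls the columns that match the hypoxia arrays an empty vector group and those that match the normoxia arrays a group overexpressing a LncRNA, while its LncRNA list, which holds Slfn4, presents the same arrays as a hypoxia comparison. Which description of the cells is right could not be settled here, and the groups below are called by their sample labels throughout. The cultures were passaged marrow washings of young rats, grown in serum and characterised in the methods by flow cytometry for surface proteins, with no cell sorting described. Rats of either sex were used. The labels call the samples biological replicates and do not say which animals they came from.

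C1qa encodes the A chain of C1q, the recognition unit that starts the classical complement pathway, and tissue macrophages are its main source. Tifab encodes a small forkhead-associated-domain protein related to TIFA that dampens TRAF6 signalling downstream of Toll-like receptors in haematopoietic cells. Prkcq encodes protein kinase C theta, which relays T cell receptor signals towards NF-κB and is also found in platelets and skeletal muscle. Slfn4 belongs to the Schlafen family, whose members are regulated during T cell and myeloid cell activation. Cultures of marrow stroma can retain macrophages in early passages.

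RefSeq (rat assembly GRCr8) places C1qa on chromosome 5 beside C1qc and C1qb, which encode the other chains of C1q. Tifab and Prkcq both lie on chromosome 17, and Macroh2a1 is a near neighbour of Tifab. Slfn4 lies on chromosome 10 among Slfn1, Slfn2, Slfn3 and Slfn4l1, and Slfn3 is also recorded as an older name of Slfn4. RefSeq annotates Slfn4 as protein-coding with 4 transcripts, whereas the study listed its probe among the LncRNAs and the name of the probe belongs to the LncRNA series of the array. Which transcript of the locus that probe reads is not given in the sources used here, and the values below are those of the probe.

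Because the 4 genes were lower under hypoxia together, the 250 bases before each RefSeq start were searched on both strands for 3 short motifs, which were chosen with the array values known. For Slfn4 this is the window of the protein-coding gene, which may not be the start of the transcript its probe reads. The letters ACGTG or GCGTG are the core that hypoxia-inducible factors bind, and 36.7% of all 33469 promoters of the RefSeq table held it in this window. The letters AGGAAGT or GGGAAGT are spellings of the core bound by ETS factors, a family that includes the myeloid regulator PU.1, and 11.5% of promoters held either. The letters GAGGAA, which can overlap AGGAAGT, were held by 23.3%. The windows are shown so that the matches can be seen in place, with the letters of every match in capitals.
C1qa, chr5:154420024-154420053, minus strand: tgtctggccctgGGGAAGTtcgggggtaga
C1qa, chr5:154419996-154420025, minus strand: gattccaagaagGGGAAGTggatgtgaaac
Tifab, chr17:8438541-8438570, plus strand: gtaccaagacccAGGAAGTcctaccatcaa
Tifab, chr17:8438648-8438677, plus strand: atttctctcctaGAGGAAaaagGAGGAAcg
Prkcq, chr17:72288526-72288555, minus strand: agtggccagtgagGCGTGaggatggagggt
Slfn4, chr10:68492036-68492065, plus strand: ttcgtgctatactACGTGgagtGAGGAAat
The window of C1qa held 2 matches to the ETS core, that of Tifab held 1, and those of Prkcq and Slfn4 held 0. GAGGAA occurred in Tifab with 2 matches, which lie in the same printed stretch, and in Slfn4 with 1. The hypoxia-inducible factor core was matched once in Prkcq, ending 30 bases before the start, and once in Slfn4, ending 167 bases before it. No motif was found in all 4 windows. The Prkcq window was also the richest in G and C, at 66.8% with 22 CpG pairs, against 52.4% and 3 in C1qa, 49.6% and 4 in Tifab, 43.2% and 6 in Slfn4 and a median of 51.2% and 5 over all promoters. A match in these letters is a description of the sequence only.

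The arrays were read in 2 scans. Hypoxia replicate 1 was read together with all 3 normoxia arrays, whereas hypoxia replicates 2 and 3 were read in a separate scan, so that condition and scan are partly confounded. The median spot intensity was 23.9 to 36.9 under normoxia, 25.0 in hypoxia replicate 1 and 46.1 to 54.2 in the other hypoxia arrays, and the median local background was 14 to 16, 14 and 22 to 22.5 in the same order. Saturated spots numbered 0. Levels below are quantile-normalized log2 intensities, and intensities are the background-corrected values of the scanner software before normalization. The probe binds its own target with its own efficiency, so levels are compared for the same gene between arrays and not between genes.

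C1qa was the member with the clearest signal in normoxic BMSCs. The normoxia arrays, in the order of their replicate numbers, gave intensities of 1365, 807 and 854, and the hypoxia arrays gave 186, 303 and 236. These were 53.8 to 71.2 times the local background of the spot under normoxia and 10.7 to 14.4 times under hypoxia, so that C1q A chain RNA was well above background in both conditions. Normalized log2 levels of the normoxia samples were 10.01, 9.57 and 9.99, those of the hypoxia samples 7.91, 7.89 and 7.80. Every hypoxia array lay below every normoxia array, and the gap between the nearest arrays was 1.65. The hypoxia arrays were closely alike (7.87 ± 0.06, SD, n = 3) and the normoxia arrays spread more (9.85 ± 0.25, SD, n = 3), with normoxia replicate 2 the lowest of them. The mean was lower under hypoxia by a log2 difference of -1.99, or 3.96-fold.

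Tifab had an intensity of 181, 120 and 111 in the normoxia samples and, in the hypoxia samples, 13.3, 47.8 and 40.4. Its normoxia spots stood 8.20 to 11.3 times over their local background, and its hypoxia spots 1.02 to 1.99 times. After normalization the log2 levels were 7.24, 6.94 and 7.19 for the normoxia arrays and 4.24, 4.94 and 4.92 for those of hypoxia. The groups did not overlap, and hypoxia replicate 1 was the lowest array. The mean fell from 7.12 ± 0.16 (SD, n = 3) to 4.70 ± 0.40 (SD, n = 3), a log2 difference of -2.42 or 5.37-fold lower.

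Prkcq was dim in both conditions. Normoxia spots read 42.2, 30.8 and 25.4 and hypoxia spots 8.95, 18.2 and 9.19, where the local background of 14, 20.5 and 22 was larger than the corrected signal on every array. The scanner software marked the spot as well above background on all 6 arrays, with an error estimate of 10.4% to 10.7% of the signal under normoxia and 12.2% to 16.0% under hypoxia. Normalized, these became log2 levels of 5.29, 5.08 and 5.18 for normoxia, against 3.71, 3.39 and 2.39 for hypoxia. The normoxia arrays lay close together (5.18 ± 0.10, SD, n = 3), the hypoxia arrays were scattered (3.16 ± 0.69, SD, n = 3), and the groups did not overlap. The mean log2 difference was -2.02, or 4.07-fold lower, with hypoxia replicate 3 the farthest from normoxia.

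The Slfn4 probe was similarly dim. Intensities of 41.8, 38.4 and 28.2 in normoxia stood against 6.62, 8.03 and 9.79 in hypoxia, the latter 0.383 to 0.490 times the local background. The software error was 10.3% to 10.6% under normoxia and 14.6% to 18.6% under hypoxia, and the spot was marked as well above background on all 6 arrays. The normalized log2 level was 5.28, 5.38 and 5.32 under normoxia, the tightest normoxia group of the 4 genes (5.33 ± 0.05, SD, n = 3). Under hypoxia it was 3.29, 2.05 and 2.49 (2.61 ± 0.63, SD, n = 3). The groups did not overlap, and the mean log2 difference of -2.72, or 6.57-fold lower, was the most negative of the 4 with all arrays after quantile normalization. This order was not stable. Tifab was more negative than Slfn4 within the shared scan, without replicate 2 of both conditions, without hypoxia replicate 2 and with 75th-percentile scaling, and both C1qa and Tifab were more negative than Slfn4 without background subtraction and with normexp.

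**Figure D1:**
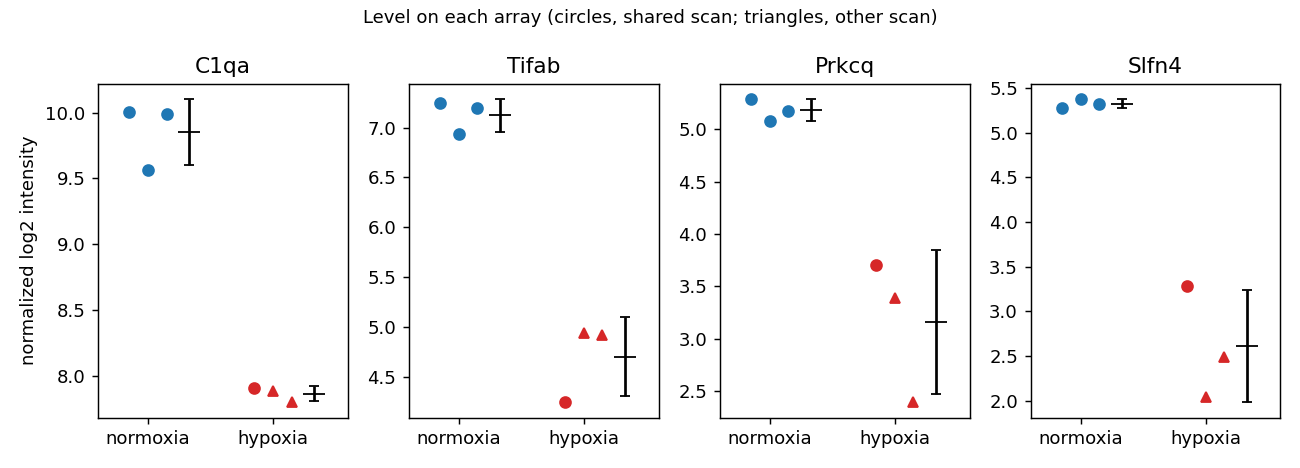
Quantile-normalized log2 intensity of the 4 genes on each array (y axis, own range for each gene) by condition (x axis), with circles for the scan that held both conditions, triangles for the other scan, and the mean with its SD (n = 3) at the right of each group. In every panel the 3 normoxia arrays lie above the 3 hypoxia arrays, with the nearest arrays 1.65 apart for C1qa and 1.38 apart for Prkcq.

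**Figure D2:**
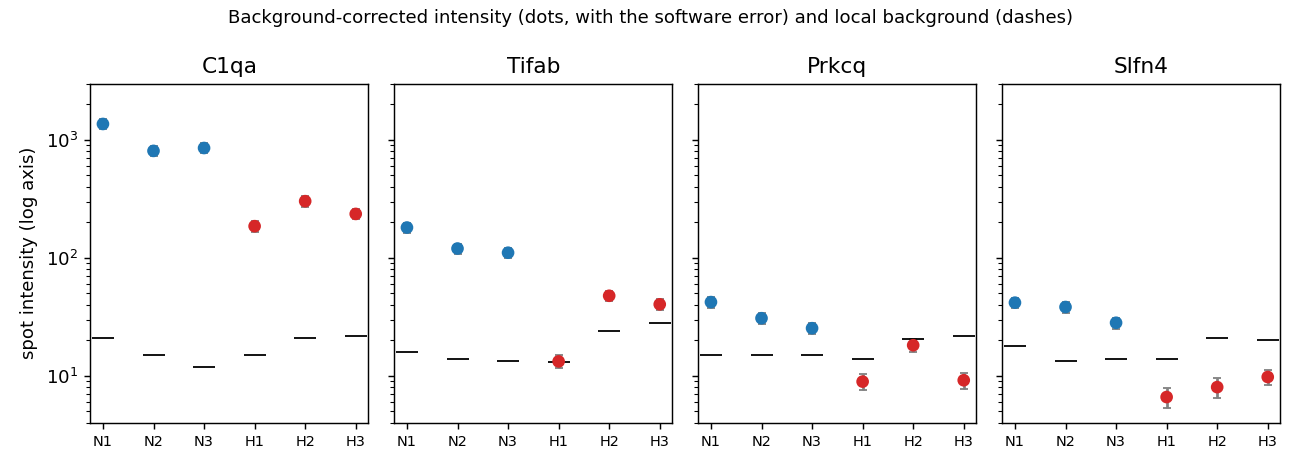
Background-corrected spot intensity (dots, with the error given by the scanner software, mostly smaller than the dot) and local background (dashes) on a log axis for normoxia arrays N1 to N3 and hypoxia arrays H1 to H3. The corrected C1qa signal is larger than its local background on every array, whereas those of Prkcq and Slfn4 under hypoxia are smaller than theirs. All these spots were marked as well above background.

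All 4 genes were lower under hypoxia on every array, and all 4 met the limma threshold, which asked for a change of over 2-fold with an adjusted p below 0.05. Of the 30451 probes tested, 2.71%, or 826, passed the threshold in this direction, and 22.2% had all hypoxia arrays below all normoxia arrays. Without replicate 1 of both conditions 2741 passed, but there all normoxia arrays were from the shared scan and all hypoxia arrays from the other. With normexp background correction 2 of the 4 genes met the threshold, Prkcq and Slfn4 being under 2-fold, against 1.34% of probes. When undetected probes were also tested only C1qa met it, against 0.315% of probes, and with the methods' paired t-test after adjustment 0 of the 4 genes and 0.00% of probes passed downwards, while 924 probes did at an unadjusted p below 0.05. Since the genes were picked for this very contrast on these arrays, none of these counts is a result about them, and no p is given for a member. Over all probes tested, the median log2 difference was -0.0022, with 1524 probes (5.00%) more than 2-fold lower, and the median over the 4 genes was -2.22. Probes with a more negative difference numbered 225 for C1qa, 212 for Prkcq, 118 for Tifab and 74 for Slfn4. In bulk RNA such as this, fewer cells of a type and less RNA per cell cannot be told apart.

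**Figure D3:**
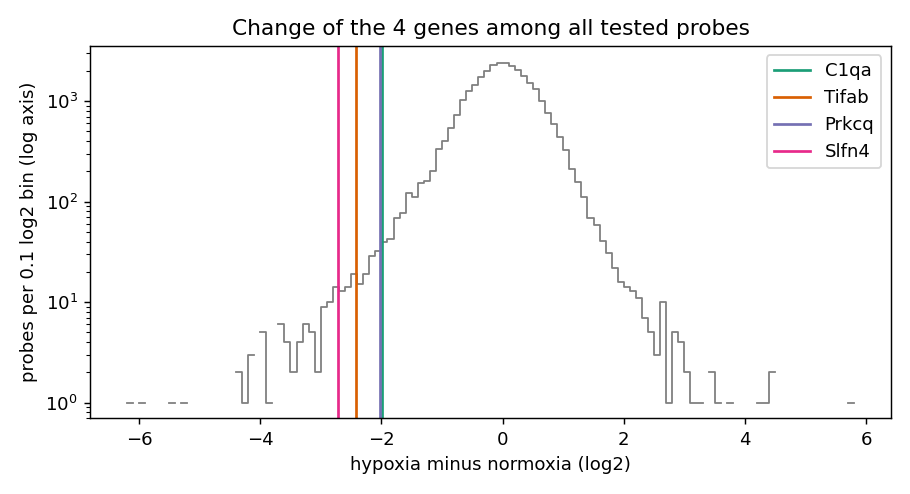
Number of tested probes in each 0.1-wide bin of the log2 difference between hypoxia and normoxia (grey line, y on a log axis), with the 4 genes as coloured vertical lines. The genes lie between -1.99 and -2.72, within the 5.00% of probes that were more than 2-fold lower.

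The scan bears on the sizes. Within the scan that held both conditions, only hypoxia replicate 1 stands against the normoxia arrays. There the log2 difference from the normoxia mean was -1.94 for C1qa, -2.88 for Tifab, -1.48 for Prkcq and -2.04 for Slfn4, so that all 4 were over 2-fold lower on that array as well. Hypoxia replicates 2 and 3, from the other scan, differed from the normoxia mean by -2.01, -2.20, -2.30 and -3.06. C1qa was thus nearly the same on the hypoxia arrays of both scans, differing by 0.07. Tifab was lower on replicate 1 by 0.69, and Prkcq and Slfn4 were higher on it by 0.82 and 1.02. Over all probes tested, hypoxia replicate 1 minus the mean of the other hypoxia arrays had a median of 0.13, and it ran from -1.19 to 1.02 when the 5% of probes at each end were left aside. With 1 hypoxia array in the shared scan, a difference between the scans and one between these samples cannot be told apart.

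The spread between arrays differed between the groups. The normoxia arrays shared a scan and the hypoxia arrays came from both scans, so condition and scan cannot be told apart here. Over all probes tested, the median SD was 0.09 under normoxia and 0.31 under hypoxia. C1qa went the other way, with an SD of 0.25 under normoxia and 0.06 under hypoxia. Tifab, Prkcq and Slfn4 had the larger SD under hypoxia. For Prkcq and Slfn4 the hypoxia SD of 0.69 and 0.63 rests on corrected signals that were smaller than the local background.

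Background treatment changed the size of the decrease most for the dim genes. With no background subtracted, the log2 difference was -1.90 for Tifab, -1.06 for Prkcq and -1.30 for Slfn4, and with the normexp method, which adds an offset of 50 to every intensity and so shrinks dim values, it was -1.30, -0.50 and -0.60. For C1qa the normexp value was -1.74. The fold changes of Prkcq and Slfn4 are therefore tied to the subtraction, while their direction was the same on each setting run.

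**Figure D4:**
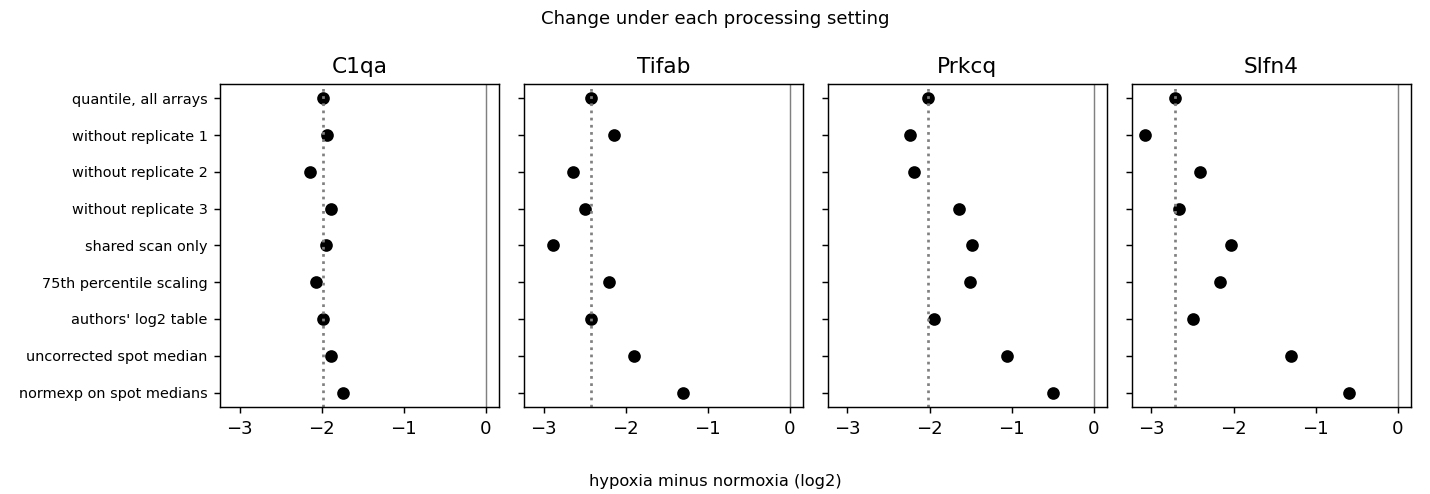
Log2 difference between hypoxia and normoxia of each gene (x axis) under the settings named at the left, with the value from all arrays after quantile normalization as a dotted line and 0 as a solid line. All points lie below 0, and the normexp values of Prkcq (-0.50) and Slfn4 (-0.60) lie nearest to it.

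The profiles of the 4 genes were compared over the 6 arrays. For scale, the members' replicate SD, pooled over both conditions, ran from 0.18 (C1qa) to 0.49 (Prkcq). Whether the distances below exceed such scatter was not tested. The root mean square difference between the centred log2 values of 2 genes over the 6 arrays, which is 0 for identical profiles, was smallest for C1qa with Tifab (0.34) and C1qa with Prkcq (0.38), and it was 0.54 to 0.61 for the other pairs. By the same measure, the nearest probes were sought among the 89 tested probes with a gene name. Nearest to C1qa were Sgo2, which protects sister chromatid cohesion and was listed as a LncRNA (0.16), Nsg1, a neuronal endosomal protein gene (0.17), and Fam83d, a mitotic spindle gene (0.20). Nearest to Tifab were the LncRNA AC125847.1 (0.29), C1qa (0.34) and Kdm4b, a histone demethylase gene (0.34). Nearest to Prkcq were the LncRNAs LOC102554575 (0.25) and LOC103695196 (0.28), followed by Ncaph, a condensin gene listed as a LncRNA (0.29). Nearest to Slfn4 were Notch1 (0.17), Tnn, which encodes the matrix protein tenascin N and was listed as a LncRNA (0.17), and Id2, an inhibitor of basic helix-loop-helix factors (0.21). Most named probes come from lists drawn from the same contrast, so a similar decrease was shared by their selection. Among all probes tested, 100 lay within 0.25 of C1qa, 6 within 0.25 of Tifab, 27 of Prkcq and 29 of Slfn4.

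Other genes of blood cells were looked for with lists of markers. Of 23 macrophage and myeloid genes, 6 could be given a probe. At the limma threshold, which 2.71% of all probes tested passed downwards and 0.923% upwards, 4 of these were lower and 2 higher under hypoxia, and Apoe, one of the higher ones, was tested only because the hypoxia arrays detected it. Besides C1qa, Tifab and Slfn4, the lower ones included Gpr34, a receptor for lysophosphatidylserine found on macrophages and microglia. Its normalized log2 level in normoxic cells averaged 6.17 ± 0.15 (SD, n = 3), while the hypoxia arrays gave 4.30, 3.67 and 3.83, for a log2 difference of -2.24. The hypoxia arrays of Gpr34 all lay below its normoxia arrays. Its mean hypoxia level of 3.93 lay between those of Prkcq (3.16) and Tifab (4.70), whose differences shrank with normexp. The Gpr34 difference was not computed with other background treatments.

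Apoe and Sirpd went the other way. Apoe encodes apolipoprotein E, which macrophages secrete but which many other cells make too. Its probe was not well above background on any normoxia array and was so on all 3 hypoxia arrays, at 5.47, 5.07 and 5.04. Hypoxia exceeded normoxia 5.62-fold with the lowest signal detected on each normoxia array standing in for the level there. An undetected probe can lie above that signal, so this fold is not a strict bound. The Apoe difference was not computed with other background treatments. Sirpd, a member of the signal-regulatory protein family, was at 6.60, 5.73 and 5.45 on the hypoxia arrays. On the normoxia arrays it was at 2.16, 3.34 and 2.97, with 2 of 3 well above background, so no size is given for its difference. All 6 genes come from the study's lists of changed genes on these arrays, so neither the 4 that were lower nor the 2 that were higher are independent evidence of a direction for myeloid genes.

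**Figure D5:**
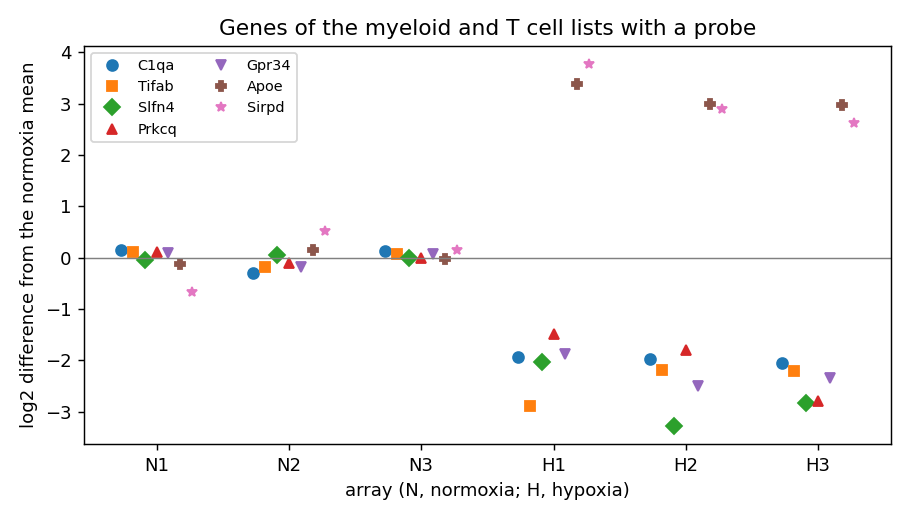
Log2 difference of each array from the gene's normoxia mean (y axis) on normoxia arrays N1 to N3 and hypoxia arrays H1 to H3 for the myeloid genes with a probe and for Prkcq. C1qa, Tifab, Slfn4, Prkcq and Gpr34 lie below 0 on every hypoxia array, and Apoe and Sirpd lie above 0; Apoe was not well above background on any normoxia array, nor Sirpd on 1 of them.

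The lists could not say which blood cells, if any, were in the cultures. Of 12 T cell genes, 1 could be given a probe, Prkcq itself, and 0 of 15 mesenchymal stromal and 0 of 5 endothelial genes could be given one. Ptprc and Itgam, the genes of the leukocyte antigens the methods stained for, were among those without a named probe, as were Itgb1, Thy1 and Nt5e on the stromal side. Neither the label of the cells nor a share of haematopoietic cells was therefore checked here. What the arrays show is that the probes of C1qa, Tifab, Prkcq and Slfn4 were above background in all 3 normoxia samples. Of the pathways around the members, the 16 complement genes, 11 genes of TIFA and TRAF6 signalling, 11 genes of PKC theta signalling and 7 Schlafen genes each had 1 gene with a probe, the member itself, so that nothing can be said of C1qb, C1qc, Tifa, Traf6 or the other Schlafen genes.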

How the data were processed

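Per array, the authors deposited the output of Feature Extraction 11.0.1.1, whose background-corrected intensity values were not normalized between arrays. A second deposited table, from the authors' own normalization, holds log2 values, and for it their methods name quantile normalization in GeneSpring. Members and lists were chosen with earlier results of these data known. Outlier spots were left out, log2 intensities were averaged per probe and quantile-normalized over 38733 probes, and the 30451 probes that 3 or more of the 6 arrays detected were tested in R 4.3.3 with limma 3.58.1 and Benjamini-Hochberg adjustment. The methods name a paired test, so replicate numbers entered the model as a block. On simulated data with known changes, tested the same way, the blocked fit called fewer of the changed probes than the fit without the block. The simulated arrays held no replicate effect, so this cannot say whether the block suits the real arrays. Precision is limited by 3 arrays per condition.

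The array files pair few probes with genes. The 4 probes were named by matching the 6 log2 values that the study lists per gene to the deposited table; the largest difference was 9e-06 and the next probe was at least 0.11 away. All 63 listed genes matched. For the 30 listed mRNA genes, C1qa, Tifab and Prkcq among them, the columns given there as vector matched the hypoxia arrays and those given as overexpression matched the normoxia arrays; this conflict with the sample labels was not resolved. The deposited table and the intensities gave C1qa and Tifab within 0.003, and they differed by up to 0.24 for Prkcq and 0.49 for Slfn4, at the lowest values. 1 listed gene, Tmem235, was left unnamed because its table values and intensities differed. Of 48 accessions on the array, 30 were named through RefSeq. Named genes are the members, the 3 named probes nearest to each, and list genes with a probe. Promoter sequences are from RefSeq, build GRCr8; the coordinates belong to that build, which is not the build of the array design.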

Additional observations from a re-analysis of the deposited data

How the results depend on the processing

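All 4 genes were lower under hypoxia in each of 15 alternatives per gene, over ranges of -2.14 to -1.74 for C1qa, -2.88 to -1.30 for Tifab, -2.30 to -0.50 for Prkcq and -3.08 to -0.60 for Slfn4. Values that moved by more than 1 replicate SD were as follows. With normexp they were -1.74, -1.30, -0.50 and -0.60 in that order, and the offset shrinks dim values by construction. With uncorrected spot medians, an alternative chosen after seeing the data, Tifab was -1.90, Prkcq -1.06 and Slfn4 -1.30. With the shared scan only, Tifab was -2.88, Prkcq -1.48 and Slfn4 -2.04. With 75th-percentile scaling, which moved the median of all probes to 0.16, Prkcq was -1.51 and Slfn4 -2.16. Leaving out arrays gave -2.14 to -1.88 for C1qa, -2.64 to -2.14 for Tifab, -2.30 to -1.64 for Prkcq and -3.08 to -2.41 for Slfn4. The -2.14 of Tifab, the -2.30 of Prkcq and the -3.08 of Slfn4 came without hypoxia replicate 1. Condition and scan are fully confounded there.

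Over all probes, 281 passed the threshold upwards and 826 downwards. The counts were 1243 and 919 with 75th-percentile scaling (57.5% upwards against 25.4%), 171 and 407 with normexp, and 57 and 122 with no detection filter. The methods' paired t-test with adjustment gave 1 and 0, against 327 and 924 at an unadjusted p under 0.05. Leaving out replicate numbers gave 395 to 2669 upwards and 783 to 2741 downwards, the highest without replicate 1; without replicate 3, 423 passed upwards. Without replicate 1, all normoxia arrays came from the shared scan and all hypoxia arrays from the other. Condition and scan cannot be told apart in that setting. The cause of these shifts was not tested. Without the replicate block 386 and 1150 passed, and the members' differences are the same by construction. Deviations of same-numbered arrays from their group means correlated across probes at -0.19, -0.06 and -0.09. Those of differently numbered arrays correlated at -0.16 to 0.21. With 3 arrays per group and hypoxia arrays from both scans, these values cannot settle whether the numbers pair the arrays.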
